A study of Homo sapiens with 6 samples.

Results

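The bin chr2:198320001-198360000 (hg19), which overlaps the COQ10B body beyond its start and the 3′ end of HSPD1, lies at an edge shared by a pair of topologically associating domains (TADs) called in LNCaP cells after CTCF siRNA. It was examined in a window of 53 bins of 40 kb, from position 197280001 to position 199400000 of chromosome 2, out of 77403 bins in the genome. The position was selected on its fall in insulation value between the deposited maps, as 1 of the 3 largest falls at gained boundaries. The contact values below come from the same contrast, so they describe the position and no test was run on them. The member genes were SF3B1, COQ10B, HSPD1, HSPE1, MOB4 and PLCL1, among 16 protein-coding genes that overlap the window.

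LNCaP is an established prostate cancer cell line. Cells were transfected with 20 nM of a non-targeting control siRNA pool or of an siRNA pool against CTCF, and were collected after 144 h for Hi-C, in which cross-linked chromatin is cut with BglII, ligated and read as pairs of sites that lay near each other. The 2 control siRNA libraries had been pooled into 1 map and the 4 CTCF siRNA libraries into another. The CTCF siRNA labels name replicates 1 and 2 and a further entry of each, so the 4 may not be independent. With 1 map per condition there was no replicate, and the errors given here cover the counting of contacts alone. RNA was not analysed here, so these maps do not give the level of CTCF or of any member gene.

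A TAD is a stretch of chromatin whose parts contact each other more than they contact the surroundings, and a boundary is the place where neighbouring TADs meet. CTCF is a zinc finger protein that binds many boundaries, often with cohesin at the anchors of loops, and active gene clusters also lie at many boundaries. The genes at this position include widely expressed housekeeping genes. SF3B1 encodes a subunit of the splicing factor that recognises the branch point. COQ10B encodes a mitochondrial protein that binds coenzyme Q, HSPD1 the mitochondrial chaperonin and HSPE1 its co-chaperonin. MOB4 encodes an adaptor of the MOB family, and PLCL1 encodes a catalytically inactive relative of phospholipase C.

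The central genes are packed closely. In GENCODE on GRCh37, SF3B1 lies on the minus strand of chromosome 2 from 198253239 to 198299803, COQ10B on the plus strand from 198318217 to 198340034, HSPD1 on the minus strand from 198351308 to 198381461, HSPE1 on the plus strand from 198364864 to 198368173 and MOB4 on the plus strand from 198380295 to 198418423. The annotated span of HSPD1 covers that of HSPE1 and overlaps the start of MOB4. PLCL1 runs from 198669317 to 199437305 on the plus strand, past the end of the window. Most genes span or share a 40 kb bin with a neighbour, so no contact could be assigned to a single promoter.

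The count of genes did not separate the sides of the boundary bin. Of the protein-coding start sites, 8 lay in the 26 bins before it (HECW2, CCDC150, GTF3C3, C2orf66, PGAP1, ANKRD44, SF3B1 and COQ10B) and 8 in the 26 bins after it (HSPD1, HSPE1, the read-through gene HSPE1-MOB4, MOB4, RFTN2, MARS2, BOLL and PLCL1). The sides differed in how the starts were spread. Those after the bin all lay between 198360001 and 198680000, and the remaining 720 kb held the body of PLCL1 and no protein-coding start. The mean GC content was 39.5% before the bin, 39.9% in the 8 bins from 198360001 to 198680000 and 37.4% in the 18 bins of the PLCL1 body. The 8 bins from 198360001 to 198680000 thus held as many starts as the 26 bins before the boundary bin. Their starts lay only in the bins at 198360001, 198520001, 198560001 and 198640001. The first of these held the starts of HSPD1, HSPE1, HSPE1-MOB4 and MOB4.

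CTCF recognises a degenerate motif, so the chromosome 2 sequence was searched for 2 forms of its core, CCACNAGGNGGC and CCAGNAGGNGGC, on both strands. They are forms of 1 motif and do not match the same place. Of the 5935 bins of chromosome 2 without unknown bases, 1059 (17.8%) held a match, and in the window 4 bins of 53 did. The matches are shown in capitals, read 5′ to 3′ on the strand that holds the motif, because their strands face each other across the boundary bin.

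HECW2 body, chr2:197365737-197365766, plus strand: aattcttatCCAGAAGGTGGCtcttttcag

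ANKRD44 body, chr2:197876944-197876973, plus strand: tcttcttgaCCACTAGGGGGCttcactgga

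PLCL1 body, chr2:198919201-198919230, minus strand: cttagcaagCCACCAGGGGGCattcccttc

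PLCL1 body, chr2:198992554-198992583, minus strand: tcacactgtCCAGCAGGTGGCtcccctgct

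Both matches before the bin were on the plus strand and both matches after it on the minus strand. The nearest lay 463 kb before and 579.2 kb after the bin's centre, and the bins from SF3B1 to BOLL held none. A match to these letters is no measure of binding, and weaker forms of the motif were not searched.

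The maps held 26174669 contacts in control siRNA and 87657905 in CTCF siRNA, of which 52.2% and 64.2% joined places on the same chromosome. Between bins of the window there were 5694 and 18615 contacts. All 53 bins reached 10% of the median cis count of the chromosome, the limit for use, where the cis count is the number of contacts of a bin within its chromosome.

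The boundary bin itself was thinly covered. It had 87 cis contacts in control siRNA, 23.6% of the chromosome 2 median, and 457 in CTCF siRNA, 39.5% of the median. It holds 4 sites of BglII (AGATCT), where the median usable bin of chromosome 2 holds 11, and 2.58% of usable bins hold as few or fewer. In the bin's contacts with other chromosomes the values were 64.6% and 62.0% of the median. The bin before it, with the starts of SF3B1 and COQ10B, has 13 sites and had 352 and 1611 cis contacts, 95.7% and 139% of the median. The insulation value and the contacts across the boundary bin leave out the contacts of the bin itself, so they do not rest on its own coverage. The coverage of the neighbouring bins enters both, and its part was examined by balancing the counts and by leaving out bins under 50% of the median cis count. The insulation difference between the maps at the boundary bin was -1.30 and -1.16 under these settings.

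**Figure D1:**
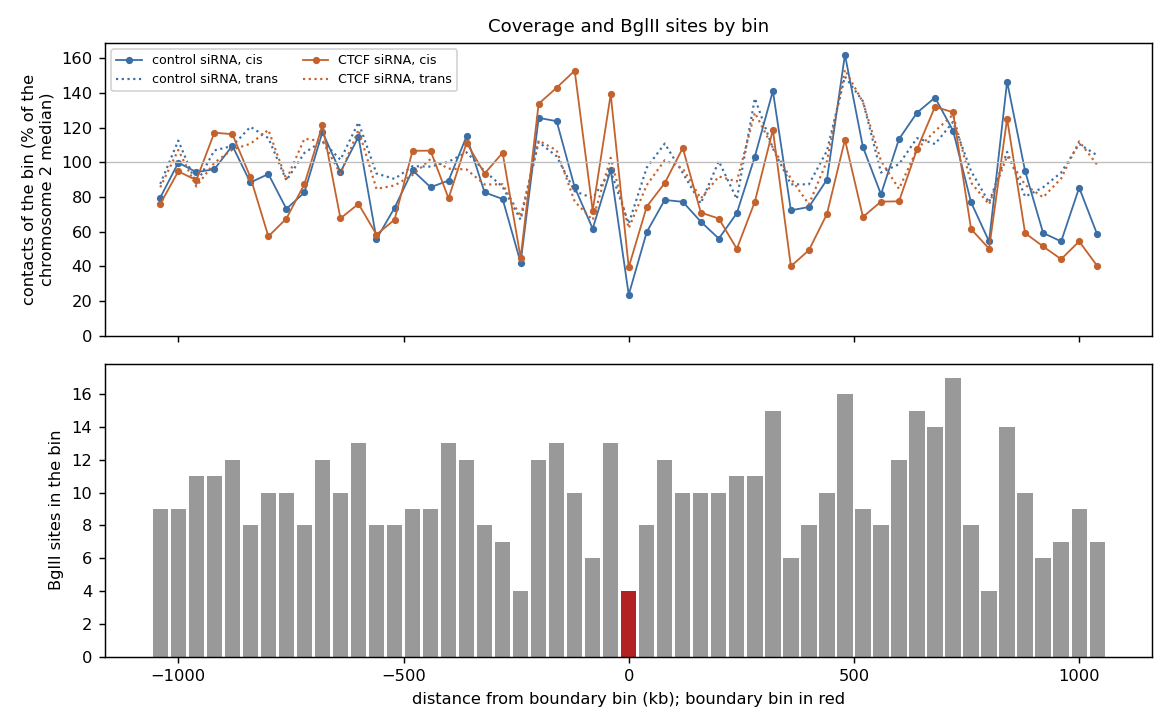
Contacts of each 40 kb bin within chromosome 2 (cis) and with other chromosomes (trans), as a percentage of the chromosome median in each map, and BglII sites per bin, by distance from the boundary bin. The boundary bin has 4 sites and the lowest cis value of the window in both maps, 23.6% and 39.5%.

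The TAD lists differed at the boundary bin by a shift of 80 kb. In control siRNA a TAD of 600 kb ran from 197660000 to 198260000 and one of 880 kb from 198260000 to 199140000. In CTCF siRNA a TAD of 720 kb ran from 197620000 to 198340000 and one of 800 kb from 198340000 to 199140000. The control boundary thus lay inside SF3B1 and the CTCF siRNA boundary at the 3′ end of COQ10B, before HSPD1. With boundaries within 40 kb counted as shared, the first was lost and the second gained, whereas within 100 kb they were the same boundary. Such pairs were not rare, since 194 of 1136 gained boundaries (17.1%) had a control boundary within 80 kb.

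The genes were regrouped by this shift. SF3B1 and COQ10B started in the TAD that also held HSPD1, HSPE1, MOB4 and PLCL1 in control siRNA, and in the TAD of ANKRD44, PGAP1 and GTF3C3 in CTCF siRNA. The outer edges differed by less. The boundary near GTF3C3 lay at 197640000 in control siRNA and at 197620000 in CTCF siRNA, and the boundary inside PLCL1 lay at 199140000 in both lists. A further boundary at 199260000, also in PLCL1, was in the CTCF siRNA list alone, 120 kb from the nearest control boundary.

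**Figure D2:**
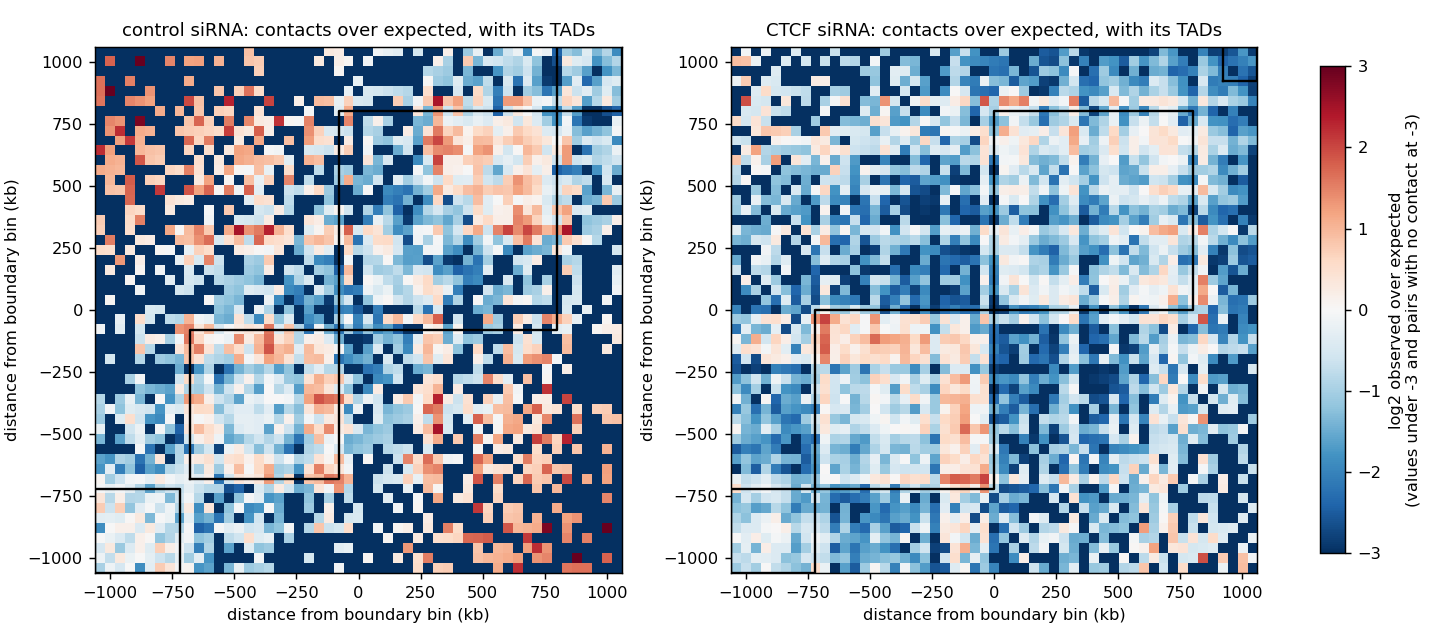
Observed over expected contacts (log2) of every pair of bins in the window, with the TADs of the same list as black squares and distances from the boundary bin on both axes. The squares meet 80 kb before the boundary bin in control siRNA and at the bin in CTCF siRNA. Single pairs far from the diagonal expect about 1 contact or fewer in control siRNA and are noisy there.

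The insulation value compares contacts across a bin with contacts inside the 400 kb on each side. For each, the observed contacts were divided by those expected from all usable pairs of chromosome 2 at equal distance, and the log2 within the flanks was subtracted from that across, so that a boundary has a negative value. At the boundary bin it was -0.11 ± 0.10 (counting SD) in control siRNA and -1.28 ± 0.07 in CTCF siRNA, a difference of -1.16 ± 0.12. The control value was close to 0, at which contacts across and within the flanks are equally near expectation.

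The lowest point in CTCF siRNA was not the boundary bin but the bin before it, with the starts of SF3B1 and COQ10B. There the value was -0.47 ± 0.11 in control siRNA and -1.59 ± 0.08 in CTCF siRNA, a difference of -1.12 ± 0.14. In the bin after, with HSPE1 and the starts of HSPD1 and MOB4, it was -0.20 ± 0.11 and -1.13 ± 0.07, a difference of -0.94 ± 0.13. These 3 bins were the only ones of the window with a difference of -0.5 or lower. Over the genome 2044 of 61475 usable bins (3.32%) had such a difference, as did 137 of 977 gained boundaries with a value (14%). Neighbouring bins share most of their contacts, so the 3 bins are not separate measurements. Of these 3, balanced counts were run for the boundary bin alone, so which of them is lowest was not checked for coverage.

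At the bin of the control boundary in SF3B1 the value was -0.49 ± 0.11 in control siRNA, a shallow dip 80 kb before the boundary bin. It was -0.94 ± 0.06 in CTCF siRNA, a difference of -0.45 ± 0.12. So the place of the control boundary also had fewer contacts across, relative to expectation, in CTCF siRNA, and the deepest point lay 40 kb further on. The ratio between maps of contacts across within 400 kb was 0.747 (0.636 to 0.880). Such a ratio was not particular to this place. At the bins of the shared TAD edges, 197600001 to 197640000 and 199120001 to 199160000, it was 0.713 (0.601 to 0.850) and 0.752 (0.644 to 0.880). The insulation differences there were -0.14 ± 0.13 and 0.30 ± 0.12.

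The lowest values of the window in control siRNA lay elsewhere, at 2 places that their counting error does not separate. One was the bin chr2:199160001-199200000, next to the boundary shared by both lists, with -0.997 ± 0.12 in control siRNA and -0.63 ± 0.07 in CTCF siRNA. The other was the bin chr2:198640001-198680000 with the starts of BOLL, a germline RNA-binding protein, and PLCL1. This last bin was singled out after its values were seen. Its insulation value was -0.998 ± 0.12 in control siRNA and -0.10 ± 0.05 in CTCF siRNA, a difference of 0.89 ± 0.14, and the nearest boundary of either list lay 320 kb away. It and the bin before it were the 2 bins of the window with a difference of 0.5 or higher. Over the genome 7396 of 61475 bins (12%) had one.

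**Figure D3:**
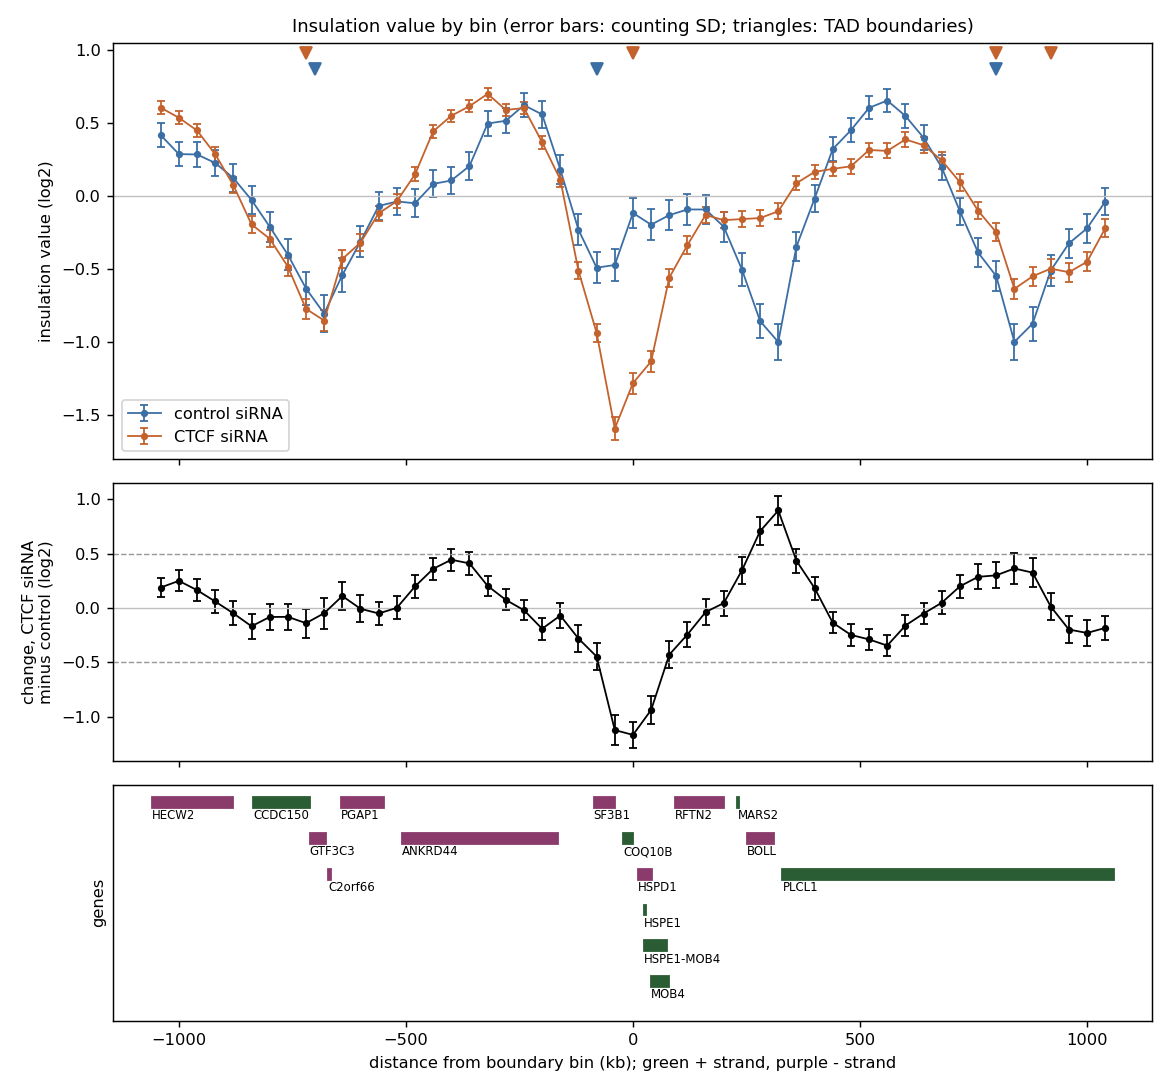
Insulation value of each bin (log2, error bars counting SD) in control siRNA and CTCF siRNA, the difference between the maps, and the protein-coding genes. Triangles mark TAD boundaries. The dip at -40 to 40 kb reaches -1.59 in CTCF siRNA, while the control dip of -0.998 at 320 kb is at -0.10 in CTCF siRNA.

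Contacts across the boundary bin are part of the insulation value on which the position was selected, so they are no separate evidence. Between the 400 kb before and the 400 kb after it there were 246 contacts in control siRNA where 354 were expected, a ratio of 0.696 (exact Poisson 95% interval 0.612 to 0.789). In CTCF siRNA there were 444 where 1415 were expected, a ratio of 0.314 (0.285 to 0.344). The second ratio was 0.451 times the first (exact conditional 95% interval 0.385 to 0.529). Contacts within the flanks were 0.754 of expected in control siRNA and 0.761 in CTCF siRNA, so the difference lay in the contacts across.

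Relative to expectation, contacts across were fewer in CTCF siRNA in each of the distance ranges examined. For pairs of bins 80 to 200 kb apart the observed over expected value was 0.619 in control siRNA and 0.401 in CTCF siRNA, from 48 and 120 contacts. For pairs 240 to 400 kb apart it was 0.625 and 0.294, and the CTCF siRNA value was lowest here. For pairs 440 to 800 kb apart it was 0.698 and 0.355. For pairs 840 to 2000 kb apart it was 0.736 and 0.460, a ratio between maps of 0.626 (0.560 to 0.700), and of 0.781 with balanced counts. The intervals of the maps overlapped only for the shortest distances, where the ratio between maps was 0.648 (0.460 to 0.926).

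Over the whole window, contacts between the sides were 0.729 of expected in control siRNA (644 contacts) and 0.400 in CTCF siRNA (1428 contacts). Contacts within the side before were 0.821 and 0.771 of expected. Contacts within the side after were 0.827 and 0.605. With balanced counts, in which every bin of chromosome 2 has the same total, the ratio between maps was 1.04 in place of 0.939 within the side before and 1.09 in place of 0.731 within the side after, so neither direction held. The median cis count of the PLCL1 body was 87.6% of the chromosome median in control siRNA and 65.0% in CTCF siRNA, while its median count of contacts with other chromosomes was 101% and 99.5%.

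The side after held 2 stretches with different contacts. After the maps were seen, 3 stretches were set apart: ANKRD44 to SF3B1 (197920001 to 198320000), HSPD1 to BOLL (198360001 to 198640000) and the first part of the PLCL1 body (198680001 to 199080000). The HSPD1 to BOLL stretch made 174 contacts with the ANKRD44 to SF3B1 stretch in control siRNA, 0.614 of expected, and 335 in CTCF siRNA, 0.297 of expected. With the PLCL1 stretch it made 124 in control siRNA, 0.438 of expected, and 678 in CTCF siRNA, 0.601 of expected. The contacts with ANKRD44 to SF3B1 are among the 246 and 444 across the boundary bin, on which the position was selected. They are no separate evidence. For these stretches the order differed between the maps. Contacts over expected were higher towards ANKRD44 to SF3B1 in control siRNA and higher towards PLCL1 in CTCF siRNA. The first stretch includes the bin with the starts of SF3B1 and COQ10B, which the control list placed in the TAD of HSPD1 to BOLL. With the bins of HSPD1 to BOLL, that bin made 9, 2, 11, 12, 5, 7 and 8 of the 174 control siRNA contacts. Whether the control siRNA order holds without it was not tested. The ratio between maps was 0.483 (0.401 to 0.584) for the first pair and 1.37 (1.13 to 1.68) for the second, which was 1.91 with balanced counts.

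Contacts of the outer stretches with each other, ANKRD44 to SF3B1 with PLCL1, were 0.654 of expected in control siRNA and 0.403 in CTCF siRNA. Within the ANKRD44 to SF3B1 stretch the values were 0.963 and 1.01, and within HSPD1 to BOLL they were 0.719 and 0.695, with overlapping intervals in both. Within the PLCL1 stretch they were 1.29 and 0.728. With balanced counts the ratio between maps within PLCL1 was 0.893 in place of 0.562.

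**Figure D4:**
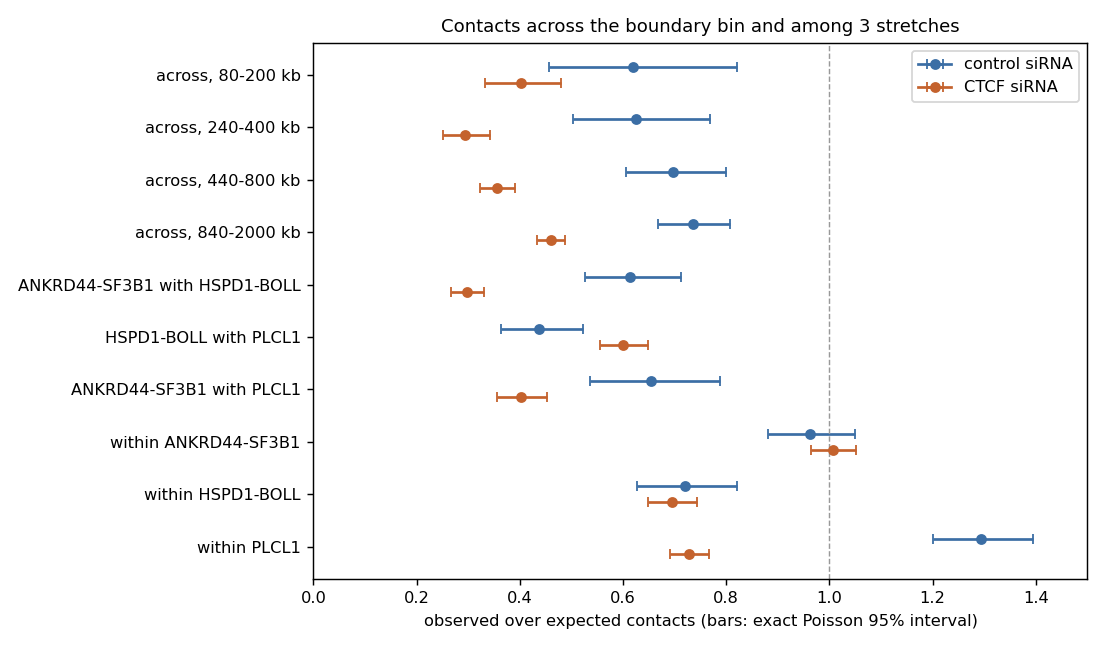
Observed over expected contacts across the boundary bin by distance, and within and between 3 stretches chosen after the maps were seen, in both maps, with exact Poisson 95% intervals. Contacts of HSPD1 to BOLL are lower with ANKRD44 to SF3B1 (0.614 to 0.297) and higher with PLCL1 (0.438 to 0.601) in CTCF siRNA.

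The bin with the starts of SF3B1 and COQ10B differed most in the side it contacted. Its contacts with the 400 kb from 197840001 to 198240000 numbered 25 in control siRNA, 0.420 of expected, and 268 in CTCF siRNA, 1.15 of expected. With the 400 kb from 198440001 to 198840000 they numbered 58, 1.34 of expected, and 134, 0.780 of expected. The log2 of the second over the first was 1.68 ± 0.35 in control siRNA and -0.56 ± 0.15 in CTCF siRNA. The bin thus favoured the stretch of RFTN2, BOLL and the PLCL1 start in control siRNA and the side of ANKRD44 in CTCF siRNA. The TAD lists grouped its genes likewise, but they were called from the same maps and are no separate evidence. Most of these pairs of bins also enter the insulation value on which the position was selected. With the PLCL1 body bins from 198680001 to 198840000 the bin made 0, 2, 0 and 0 contacts in control siRNA. In CTCF siRNA these were 3, 4, 9 and 10. The stretch holds no part of HSPD1. With the boundary bin, at the 3′ end of HSPD1, contacts were 0.252 of expected in control siRNA and 0.511 in CTCF siRNA. With the bin of the HSPD1 start they numbered 9 and 30, below expected in both maps.

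The other central bins had values of 1 sign in both maps, except the boundary bin. In the other SF3B1 bin, with the 3′ part of the gene, the same log2 value was -1.10 ± 0.41 in control siRNA and -2.51 ± 0.29 in CTCF siRNA. In the bin with HSPE1 and the starts of HSPD1 and MOB4 it was 1.54 ± 0.49 and 2.05 ± 0.25, which differ by less than their counting error. In the bin with the rest of MOB4 and the 3′ end of RFTN2 it was 0.54 ± 0.37, within 2 counting SDs of 0, and 2.28 ± 0.28, a difference of 1.74 ± 0.46. The boundary bin gave -0.29 ± 0.65 and 0.68 ± 0.28, from 20 contacts in control siRNA, so its side was not measurable there.

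**Figure D5:**
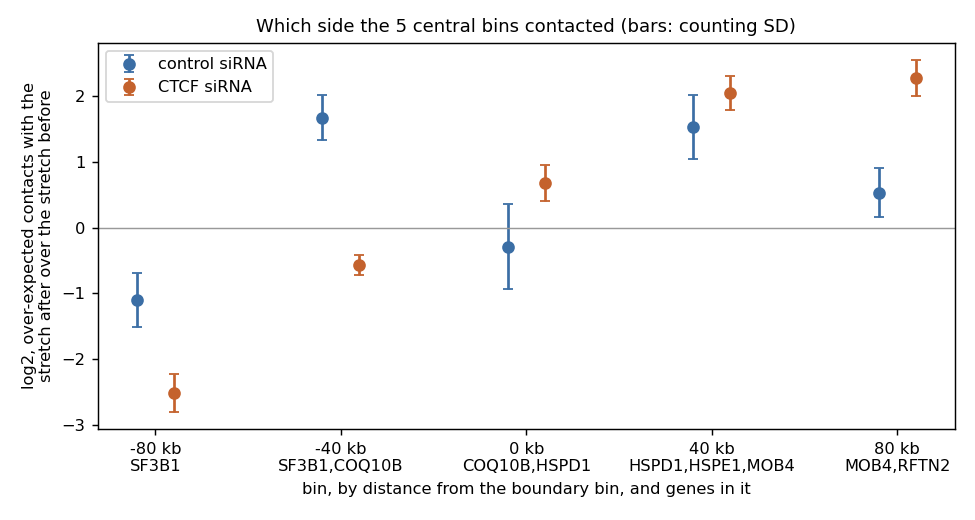
Log2 ratio of over-expected contacts with the stretch after (198440001 to 198840000) over those with the stretch before (197840001 to 198240000) for the 5 central bins, with counting SD. Values above 0 favour the side after. The bin at -40 kb, with the starts of SF3B1 and COQ10B, is at 1.68 in control siRNA and -0.56 in CTCF siRNA.

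By gene, over all bins that a gene touches, SF3B1 made 139 contacts with the rest of the side before in control siRNA, 0.715 of expected, and 854 in CTCF siRNA, 1.11 of expected. Its contacts with the side after were 0.771 and 0.512 of expected. COQ10B, which shares a bin with SF3B1 and the boundary bin with HSPD1, had 0.372 and 0.705 of expected with the side before, and 0.540 and 0.512 with the side after. The cis counts of its 2 bins were 95.7% and 23.6% of the chromosome median in control siRNA and 139% and 39.5% in CTCF siRNA. With balanced counts its values were 0.673 and 0.917 with the side before, a ratio between maps of 1.36 in place of 1.90, and 0.802 and 0.909 with the side after. For SF3B1 the balanced ratios between maps were 1.36 with the side before and 0.589 with the side after.

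For HSPD1 the values were 0.273 and 0.308 of expected with the side before, where the balanced values were 0.728 and 0.691, and 0.499 and 0.652 with the side after. HSPE1, which lies in 1 bin, had 0.339 and 0.274 with the side before, from 29 and 93 contacts, and 0.744 and 0.882 with the side after. MOB4 had 0.358 and 0.266 with the side before, and 0.679 and 0.923 with the side after. With balanced counts the values with the side after were 1.004 and 1.388 for HSPD1, 1.28 and 1.56 for HSPE1, and 1.02 and 1.48 for MOB4, so whether they lay below or above expected depended on this setting. With the side before, the balanced values were 0.574 and 0.381 for HSPE1 and 0.540 and 0.348 for MOB4. With counts as recovered or balanced, the chaperonin genes and MOB4 had more contacts over expected with the side after than with the side before in both maps.

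The PLCL1 start bin made more contacts than expected with 3 sets of bins in control siRNA. It made 43 contacts with the 400 kb from 197840001 to 198240000, 2.01 of expected, and 63 in CTCF siRNA, 0.720 of expected. With the 5 central bins it made 34 contacts in control siRNA, 1.60 of expected, and 83 in CTCF siRNA, 0.975 of expected. With the PLCL1 body to 199080000 it made 113 where 56.5 were expected, and 248, 1.13 of expected. In each of these 3 the CTCF siRNA value was lower, with ratios between maps of 0.358 (0.239 to 0.540), 0.609 (0.404 to 0.937) and 0.563 (0.449 to 0.710). These sets leave out nearer bins. With the bins from 198440001 to 198640000 the start bin made 3, 2, 3, 12 and 27 contacts in control siRNA, each below expected. With the bin after it there were 12, also below expected. The start bin has 15 BglII sites, and its cis count was 141% of the chromosome median in control siRNA and 119% in CTCF siRNA. With balanced counts, added after seeing the data, the values were 1.49 and 0.611 for the first, 1.62 and 1.17 for the second, and 1.38 and 1.17 for the third, where the ratio between maps was 0.848. Over all PLCL1 bins of the window, contacts with the side before were 0.869 of expected in control siRNA and 0.481 in CTCF siRNA, lower in CTCF siRNA as for the start bin. Contacts of these bins with the bins from HSPD1 to BOLL were 0.493 and 0.613 of expected. With balanced counts these values were 0.919 and 0.630 with the side before, and 0.580 and 1.02 with the bins from HSPD1 to BOLL, a ratio between maps of 1.77 in place of 1.25.

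Pairs of member genes were measured from few contacts. Contacts of PLCL1 with HSPD1 numbered 34 and 221, 0.411 and 0.655 of expected, and those of PLCL1 with MOB4 numbered 49 and 307, 0.540 and 0.832 of expected. The ratios between maps were 1.59 (1.11 to 2.36) and 1.54 (1.14 to 2.13), the 2 pairs of 15 with both ends of the interval above 1. HSPD1 and MOB4 share the bin of HSPE1, so these pairs are not separate measurements. That bin alone made 27 and 160 contacts with PLCL1, a ratio between maps of 1.45 (0.963 to 2.28). How many other sets of bins would have such an interval was not measured. SF3B1 with COQ10B had 24 and 103 contacts, 0.352 and 0.392 of expected, and COQ10B with HSPD1 had 16 and 100 contacts, 0.235 and 0.380 of expected. The other pairs had intervals that held 1. The boundary bin, with the 3′ end of HSPD1, and the next bin had 0 contacts in control siRNA where 27.8 were expected. This allows up to 0.108 of expected at 3 contacts (0.133 by the exact Poisson 95% interval). In CTCF siRNA there were 15, 0.139 of expected. The next bin holds HSPE1 and the HSPD1 start, and contacts within a bin were not counted between genes. So this pair of bins does not measure contact between HSPD1 and HSPE1. The expected values take no account of coverage. The cis counts of these bins were 23.6% and 59.8% of the chromosome median in control siRNA and 39.5% and 74.4% in CTCF siRNA. Differences between the maps in the contacts of the 5 central genes with each other were not detectable at this depth.

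The far end of the TAD that the CTCF siRNA list placed before the boundary was also seen in the contacts. The bin with the starts of GTF3C3, a subunit of a transcription factor for RNA polymerase III, and C2orf66 made 27 contacts with the 5 bins before the boundary bin in control siRNA, 2.28 of expected, and 159 in CTCF siRNA, 3.29 of expected. With the 5 bins after the boundary bin it made 5 and 20 contacts, 0.680 and 0.662 of expected. The contact was therefore above expected in both maps on 1 side, and the ratio between maps, 1.44 (0.954 to 2.26), held 1. These bins were chosen after the maps were seen.

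Contacts with other chromosomes were compared between gene-dense chromosomes 17, 19 and 22 and gene-poor chromosomes 4, 13 and 18. The log2 of dense over poor, minus the same over all usable bins of chromosome 2, was 0.01 ± 0.08 for the side before in control siRNA and -0.15 ± 0.06 in CTCF siRNA. For the side after it was -0.07 ± 0.08 and -0.28 ± 0.06. The sides differed by 0.07 ± 0.12 in control siRNA and 0.13 ± 0.08 in CTCF siRNA, within about 2 counting SDs of 0 in both. Inside the side after, the 8 bins from 198360001 to 198680000 had 0.19 ± 0.15 and -0.11 ± 0.10, and the PLCL1 body had -0.18 ± 0.10 and -0.35 ± 0.07. The difference between these stretches was 0.38 ± 0.18 and 0.24 ± 0.12, about 2 counting SDs. It was 0.30 ± 0.30 and 0.09 ± 0.21 with chromosome 19 against chromosome 4, and 0.14 ± 0.13 and 0.16 ± 0.08 with chromosomes 16, 17, 19, 20 and 22 against 3, 4, 5, 13 and 18, positive in each but within 2 counting SDs of 0.

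Among gained boundaries the position had the next fall after VPS13A on chromosome 9 (-1.28) and BCOR on chromosome X (-1.22), followed by 27400001 to 27440000 on chromosome 10 (-1.15). These were alike in the fall and not in the contacts behind it. At VPS13A contacts across were 0.537 of expected in control siRNA and 0.173 in CTCF siRNA, a ratio between maps of 0.322 (0.272 to 0.382), and the flanks went from 1.08 to 0.842. At BCOR contacts across were 2.01 and 1.88 of expected, a ratio of 0.932 (0.833 to 1.04), and the flanks went from 1.77 to 3.83. At COQ10B and HSPD1 the contacts across were 0.451 times those in control siRNA, with flanks of 0.754 and 0.761. The nearest control boundary lay 80 kb away here, against 200 kb at VPS13A and 540 kb at BCOR.

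The size of the insulation difference depended on the flanks, and it was -0.72 with flanks of 800 kb. The difference at the BOLL and PLCL1 bin was 0.33 with flanks of 800 kb and 0.41 with the values as deposited, both under 0.5. With 1 pooled map per condition, the siRNA, the libraries and the depth cannot be told apart.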

How the data were processed

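Per the labels and methods, the authors mapped reads to hg19 with Bowtie 1.1.0 and HiCUP, tagged duplicates with Picard 1.121, pooled libraries of a condition and called TADs from a directionality index. The deposited contact values are read-pair counts multiplied by a correction factor per bin between positions 9400001 and 48120000 of each chromosome. Whole counts were recovered there by division, and values in the window were already whole.

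Expected contacts were means over usable pairs of the chromosome at each distance and were treated as fixed. Facing TAD edges at most 100 kb apart were 1 boundary. Genome shares used chromosomes 1 to 22 and X and bins with at least 50 contacts expected across in each map. Counting SDs of log2 values came from the delta method, and contact intervals cover counting error alone. Contacts are read pairs without molecular identifiers. The insulation calculation was tried on simulated maps of even coverage with planted boundaries, which lack the uneven coverage of this position. Balancing used 50 rounds. Python 3.11.15, numpy and scipy were used.

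The members, gene lists and comparisons were chosen with earlier results of these data known. Named were the 6 members, every protein-coding gene and boundary of the window, and the VPS13A and BCOR boundaries. Those chosen after values were seen are marked. Alternatives were other flanks, balancing, other expected values, the deposited values, stricter bins and other boundary tolerances.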

Additional observations from a re-analysis of the deposited data

How the results depend on the processing

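No paired analysis was possible because each condition is 1 pooled map. The insulation difference at the boundary bin, -1.16, was -0.92 with flanks of 200 kb, -0.72 with flanks of 800 kb and -1.65 with the values as deposited. At the BOLL and PLCL1 bin the difference, 0.89, was 0.33 with flanks of 800 kb, 0.41 with the values as deposited and 1.26 without pairs under 3 bins apart. The difference at the boundary bin stayed within its counting interval under the other alternatives run, among them leaving out contacts within a bin, chosen after seeing the data. The ratio between maps of contacts across was 0.650 within 200 kb. Within the side before it was 0.939, against 1.04 with balanced counts and 0.860 with expected values from all autosomes. Within the side after it was 0.731, against 1.09 and 0.670. Between the sides it was 0.548, against 0.624 and 0.495. Within the ANKRD44 to SF3B1 stretch it was 0.960 with expected values from all autosomes, and within HSPD1 to BOLL it was 1.06 with balanced counts, each on the other side of 1 from the value reported. For pairs 840 to 2000 kb apart across the boundary bin it was 0.626, against 0.781 with balanced counts and 0.556 with expected values from all autosomes. For the bins of COQ10B with the side after it was 1.13, and for those of HSPD1 with the side before 0.949, with balanced counts chosen after seeing the data, again on the other side of 1. Within 100 kb, and within 200 kb, 1 control boundary lay near the gained one. The causes of these shifts were not tested. The interchromosomal differences between the maps (CTCF siRNA minus control siRNA), -0.16 for the side before and -0.22 for the side after, kept their sign with the other chromosome sets. The control map had the lower depth and set most of the counting error.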
